A study of Homo sapiens with 40 samples.

Results

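The change in the effect of CASP8AP2 small interfering RNA (siRNA) between the first and the second day after transfection was followed in U2OS cells, a human osteosarcoma line. The effect of each day was the log2 level with CASP8AP2 siRNA minus that with control siRNA, and the effect of day 1 was subtracted from the effect of day 2 for each of 22069 Ensembl genes. The 12 arrays compared are 12 of the 40 in the series, and their spread was estimated together with that of the 12 arrays of hTERT-RPE1 cells, a retinal pigment epithelial line, from the same days. They form 4 groups of 3 biological replicates: control siRNA on day 1, CASP8AP2 siRNA on day 1, control siRNA on day 2 and CASP8AP2 siRNA on day 2. All 4 groups were reverse transfected at 15 nM siRNA, with a set of siRNAs against CASP8AP2 or a negative control siRNA, and grown in medium with serum and antibiotics. The labels call the replicates biological, and the study's methods describe parallel duplicate transfections in multiwell plates, whereas days 1 and 2 have 3 arrays a group. How the 3 were made, or whether on separate occasions, is not given in the sources used here, so p-values measure the spread between these samples. The same set of siRNAs was used throughout, so an effect shared by its siRNAs on another transcript cannot be told apart from loss of CASP8AP2. Because cells were lysed together, a lower level in fewer cells and less RNA per cell cannot be told apart. The question was which genes change late, on day 2, and which had already changed on day 1.

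CASP8AP2, also called FLASH, is a large nuclear protein that binds NPAT and resides with it at the clusters of replication-dependent histone genes. It takes part in the transcription of these genes and in the cleavage of their pre-mRNA, which ends in a stem-loop in place of a poly(A) tail. Histone supply and DNA synthesis are coupled in S phase, when E2F transcription factors drive the genes for replication and for the S phase cyclins. HINFP is a zinc finger factor that binds histone H4 genes.

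The 12 arrays were alike in scale. Array means lay between 6.03 and 6.05 on the log2 scale, and replicates correlated across genes with r between 0.997 and 0.998. The median standard error was 0.087 for the effect of a day and 0.124 for the difference between the days, so the same change is harder to call as a difference than as an effect of day 2. Symbols were paired with 1924 genes (8.72%), and no replication-dependent histone gene was among them, so that histone genes are not described by name here. Only 2 of 9 osteoblast markers had a symbol, and both were higher in hTERT-RPE1 cells, against what the U2OS label would give: RUNX2, the master regulator of osteoblasts, lay between 7.17 and 8.36 in U2OS cells and between 9.34 and 9.75 in hTERT-RPE1 cells on days 1 and 2, and IBSP, a bone matrix protein, lay between 3.56 and 3.83 in U2OS cells and between 3.84 and 4.44 in hTERT-RPE1 cells. The retinal pigment epithelium markers were no higher in hTERT-RPE1 cells either, with RLBP1 between 3.82 and 4.54 in U2OS and 3.76 and 4.51 in hTERT-RPE1 cells and BEST1 between 4.13 and 4.67 and between 3.66 and 4.24. These 4 genes therefore do not check the identity of the line.

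The targeted transcript was low on both days. CASP8AP2 (ENSG00000118412) measured 6.86, 6.75 and 6.68 with control siRNA and 5.40, 5.39 and 5.60 with CASP8AP2 siRNA on day 1. On day 2 it measured 6.97, 6.99 and 7.02 with control siRNA and 5.23, 5.20 and 5.34 with CASP8AP2 siRNA. All 6 siRNA arrays lay below all 6 control arrays, with 40.6% of the transcript left on day 1 and 30.1% on day 2. The log2 effects were -1.30 and -1.73, and their difference of -0.43 (SE 0.13) did not pass the threshold (limma adjusted p 0.0544), although it passed in 5 alternative settings, among them the fit of the 12 arrays alone (adjusted p 0.0286). Most of the measured fall was thus present on day 1. NPAT (difference -0.07, adjusted p 0.74) and HINFP (difference 0.06, adjusted p 0.792) were not called for the difference. HINFP was called higher on day 2, by 0.19 (adjusted p 0.0262).

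More genes were called against control on the second day than on the first. On day 1, 1295 genes (5.87% of those tested) passed an adjusted p of 0.05, 631 of them higher (2.86%) and 664 lower (3.01%) with CASP8AP2 siRNA. On day 2, 5492 genes (24.9%) passed, 2600 higher (11.8%) and 2892 lower (13.1%). The difference between the days itself was called for 1554 genes (7.04%), of which 882 were more positive (4%) and 672 more negative (3.04%) on day 2, and 4431 genes had an unadjusted p under 0.05. The fit of the 12 U2OS arrays alone called 1274 genes for the difference, 1129 of them shared. Large differences were mostly in the positive direction: of 148 called genes that differed by at least 1 on the log2 scale, 138 were positive and 10 negative. The split depends on how the arrays are scaled. After cyclic loess normalization 1482 genes were called for the difference, 1096 positive and 386 negative, and 5340 on day 2, 3238 higher and 2102 lower.

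Genes were sorted by the 3 comparisons into timing classes. A gene was late when the difference and the effect of day 2 were called with the same sign and the effect of day 1 was not called, and there were 1207 such genes (5.47%), 683 higher (3.09%) and 524 lower (2.37%). Early genes that grew were called on both days and for the difference with 1 sign and numbered 229 (1.04%), 154 higher (0.698%) and 75 lower (0.34%). Early genes with a steady effect were called on both days with 1 sign and not for the difference, and numbered 820 (3.72%), 343 higher (1.55%) and 477 lower (2.16%). In 67 genes (0.304%) the effect of day 1 shrank or turned, with a called difference of the opposite sign, positive in 26 (0.118%) and negative in 41 (0.186%). After cyclic loess normalization the late genes were 861 higher and 302 lower, the growing genes 188 higher and 39 lower, and the shrinking genes 33 positive and 28 negative; a fit of all 40 arrays gave 23 and 24 for the last. The remaining 51 genes (0.231%) called for the difference fitted none of these definitions.

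**Figure D1:**
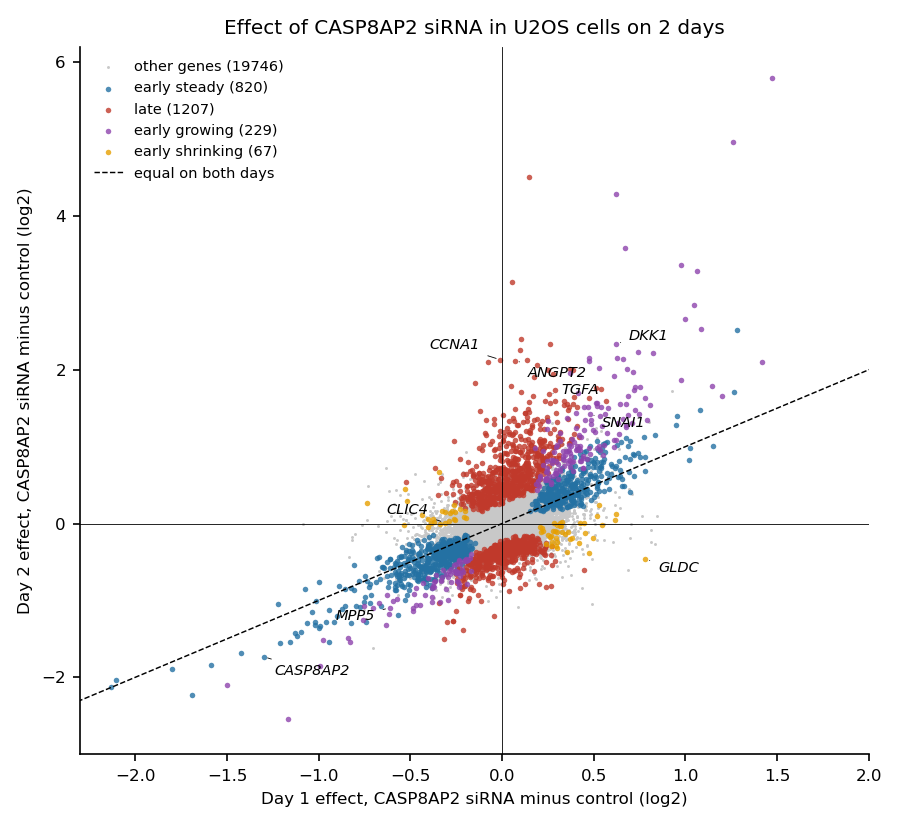
Effect of CASP8AP2 siRNA on day 1 (x axis, log2) against day 2 (y axis, log2) in U2OS cells for 22069 genes, coloured by timing class, with the dashed line where both days are equal. The 1207 late genes lie in a band around 0 on day 1, which the definition of the class sets, and the highest points on day 2 belong to late and early growing genes.

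A late gene was not always silent on day 1. Among the 1207 late genes, 833 (3.77% of all genes) had a 95% interval of the day 1 effect within 0.32 on the log2 scale of 0 (407 higher, 1.84% of all genes, and 426 lower, 1.93%), and for the other late genes a small early effect is possible. Of the 5492 genes called on day 2, 1207 (22.0%) were late, 229 growing and 820 steady, whereas 3221 (58.6%) were called neither on day 1 nor for the difference, so that these arrays cannot place them in time. The median effect of the late higher genes was 0.04 on day 1 and 0.60 on day 2, and that of the late lower genes was 0.00 and -0.39. These medians follow from the definition and are given as a description.

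Of the 683 late higher genes 87 had a symbol, and among these the largest rises include a cyclin and several secreted growth factors. CCNA1 (ENSG00000133101) encodes cyclin A1, a cyclin known from germ cells. It measured 4.04, 3.89 and 3.60 with control siRNA and 3.85, 3.82 and 3.82 with CASP8AP2 siRNA on day 1, and 3.83, 4.11 and 3.88 against 6.37, 5.76 and 6.08 on day 2. The arrays overlapped on day 1, and on day 2 all 3 siRNA arrays stood above every other array, for a difference between days of 2.14 (SE 0.20, adjusted p 6.56e-07). ANGPT2 (ENSG00000091879), a secreted ligand of the endothelial TIE2 receptor, measured 3.87, 3.78 and 3.82 against 3.94, 3.86 and 3.88 on day 1, and 3.57, 3.55 and 3.91 against 6.04, 5.75 and 5.59 on day 2. Its difference was 2.05 (SE 0.15, adjusted p 2.02e-08), and its day 1 arrays nearly coincided. In both genes the interval of the day 1 effect lay within 0.32 of 0. All their day 1 values lay below the array medians, which ran from 5.58 to 5.67. At such low levels the interval does not show that an early effect was absent.

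The other 4 late genes with the largest rises among those with a symbol had day 1 effects between 0.17 and 0.37 that were not called. TGFA, a ligand of the EGF receptor, measured 5.93, 6.10 and 6.26 with control siRNA and 6.39, 6.32 and 6.34 with CASP8AP2 siRNA on day 1, and 5.93, 5.68 and 5.81 against 7.55, 7.23 and 7.70 on day 2 (difference 1.43, SE 0.16, adjusted p 4.52e-06). The groups did not overlap on either day, and the effect of day 1 was 0.26 (adjusted p 0.217). PGF, placental growth factor of the VEGF family, went from 5.28, 5.31 and 5.35 against 5.72, 5.83 and 5.48 on day 1 to 5.64, 5.82 and 6.03 against 7.58, 7.08 and 7.39 on day 2, with a difference of 1.15 (adjusted p 0.000146) and a day 1 effect of 0.37 (adjusted p 0.0772). DLL4, a Notch ligand, differed by 1.11 (adjusted p 0.00023) and ZNF280A, a zinc finger protein, by 1.36 (adjusted p 2.84e-05). On day 2 the siRNA arrays of DLL4 lay at 4.97, 5.07 and 4.50 against controls at 3.42, 3.64 and 3.65, and those of ZNF280A at 7.09, 7.02 and 7.07 against 5.19, 5.36 and 5.84. Those 4 genes are late because day 1 did not pass the threshold, not because it was shown to be without effect.

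Among genes with a symbol, the late genes with the largest fall were unlike each other in function. DHODH, the mitochondrial enzyme of pyrimidine synthesis that makes orotate, measured 6.93, 6.84 and 6.84 with control siRNA and 6.63, 6.72 and 6.69 with CASP8AP2 siRNA on day 1, and 7.26, 7.06 and 7.24 against 6.30, 6.07 and 6.18 on day 2 (difference -0.82, SE 0.10, adjusted p 1.24e-05). OSGEPL1, a mitochondrial tRNA modification enzyme, differed by -0.89 (adjusted p 3.54e-05) and TNNT2, cardiac troponin T, by -0.89 (adjusted p 0.00169). For DHODH and OSGEPL1 the siRNA arrays were already below the controls on day 1, with effects of -0.19 and -0.25 that were not called, and between the days the controls of both genes moved up while their siRNA arrays moved down.

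RAD54B and TTPA complete the largest late falls among genes with a symbol and were less certain. RAD54B, a DNA translocase of homologous recombination, measured 6.85, 6.99 and 6.86 against 6.91, 6.54 and 7.23 on day 1 and 7.12, 7.22 and 7.13 against 6.48, 6.33 and 6.69 on day 2, for a difference of -0.66 (SE 0.17, adjusted p 0.0232). The call was lost without control replicate 1 (-0.63) or 3 (-0.64) or siRNA replicate 3 (-0.49) of day 1, without control replicate 2 (-0.63) or siRNA replicate 2 (-0.57) of day 2, and in the fit of the 12 arrays alone (adjusted p 0.0832). TTPA, the tocopherol transfer protein, differed by -0.63 (adjusted p 0.0226) and lost its call without control replicate 2 (-0.54) or siRNA replicate 3 (-0.59) of day 1, or control replicate 2 (-0.58) or siRNA replicate 1 (-0.51) of day 2. It also lost it with the replicate number as a block (adjusted p 0.0542).

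**Figure D2:**
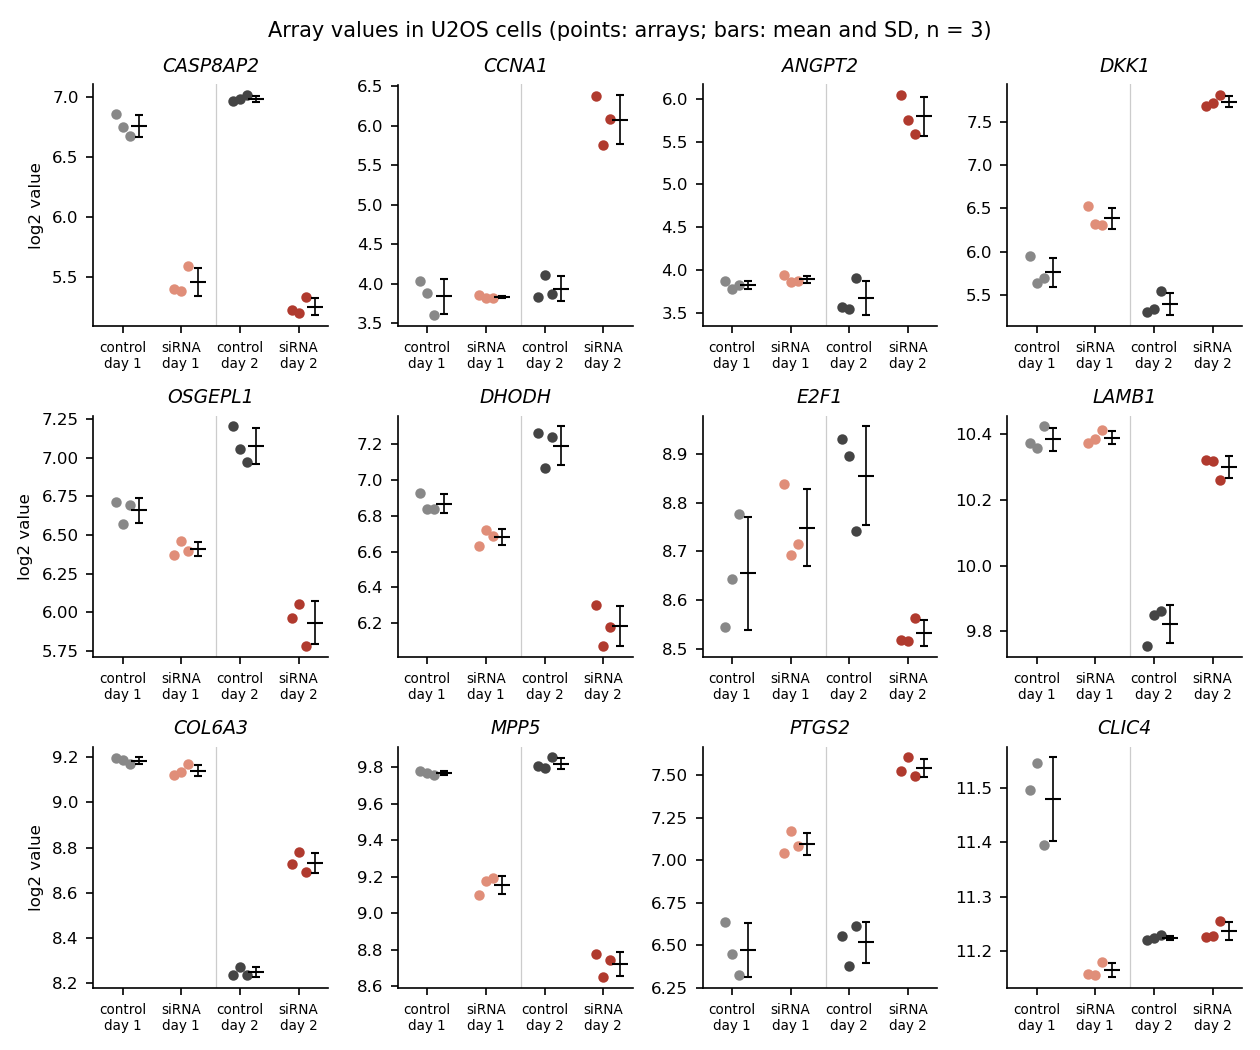
Log2 values of 12 genes on each of the 12 U2OS arrays (points), with the mean and SD of each group (n = 3, bars), on axes that do not start at 0. CCNA1 and ANGPT2 are flat until the siRNA arrays of day 2, DKK1 and MPP5 are apart on day 1 and farther apart on day 2, PTGS2 differs on both days, LAMB1 and COL6A3 part because the controls are lower on day 2, and CLIC4 differs on day 1 and not on day 2.

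Among genes with a symbol, those already changed on day 1 that moved further were led by DKK1 (ENSG00000107984), a secreted inhibitor of Wnt signalling. It measured 5.95, 5.64 and 5.69 with control siRNA and 6.53, 6.32 and 6.31 with CASP8AP2 siRNA on day 1, and 5.30, 5.34 and 5.55 against 7.68, 7.72 and 7.81 on day 2. Its effect was 0.62 on day 1 (1.54-fold) and 2.34 on day 2 (5.06-fold), for a difference of 1.72 (SE 0.16, adjusted p 5.08e-07). KCNJ15, an inward rectifier potassium channel, rose by 0.52 and then 1.54, and SNAI1, a repressor of E-cadherin known from epithelial to mesenchymal transition, by 0.48 and then 1.42. Their differences were 1.02 (adjusted p 0.00176) and 0.94 (adjusted p 6.67e-05), and the groups of both genes were separate on both days.

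Falls that grew were smaller among genes with a symbol. MPP5 (now PALS1), a scaffold of the Crumbs polarity complex, measured 9.78, 9.77 and 9.76 against 9.10, 9.17 and 9.19 on day 1, and 9.81, 9.80 and 9.85 against 8.77, 8.65 and 8.74 on day 2. Its controls stayed level while the siRNA arrays fell again (difference -0.48, SE 0.08, adjusted p 0.000743). NEIL3, a DNA glycosylase of replicating cells, differed by -0.52 (adjusted p 0.0022) and ACCN2 (now ASIC1), an acid-sensing channel, by -0.50 (adjusted p 0.00208), and their effects on day 1 were -0.24 and -0.25.

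The largest differences of all genes belonged to Ensembl genes without a paired symbol. ENSG00000144158 was late: it measured 4.30, 3.90 and 4.21 against 4.20, 4.49 and 4.17 on day 1 and 4.05, 3.71 and 3.89 against 8.42, 8.43 and 8.33 on day 2, a difference of 4.37 (SE 0.15, adjusted p 2.22e-13). ENSG00000252421 had risen on day 1, from 3.65, 3.58 and 3.54 to 5.20, 4.95 and 5.04, and stood at 3.59, 3.47 and 3.85 against 9.46, 9.50 and 9.34 on day 2 (difference 4.33, adjusted p 2.93e-09). In the other direction ENSG00000184348 fell on both days, with 8.31, 8.43 and 8.33 against 7.22, 7.23 and 7.12 on day 1 and 9.30, 9.37 and 9.65 against 6.93, 6.91 and 6.85 on day 2 (difference -1.37, adjusted p 0.000124). Its controls rose by 1.08 between the days, which makes up most of that difference. The most negative difference, -1.53 in ENSG00000200649, was not called (adjusted p 0.0634).

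Genes with an early and steady effect were apart from control on both days without a called difference. PTGS2, the inducible cyclooxygenase, measured 6.64, 6.45 and 6.32 against 7.04, 7.17 and 7.08 on day 1 and 6.56, 6.38 and 6.61 against 7.53, 7.60 and 7.50 on day 2, with effects of 0.63 and 1.03 and a difference of 0.40 that was not called (adjusted p 0.113). CD274, the immune checkpoint ligand PD-L1, had effects of 0.78 and 0.86, and RGS2, a regulator of G protein signalling, of 0.75 and 0.86. Levels of RGS2 rose between the days by 0.71 in the controls as well, so that both arms moved together. On the lower side, beside CASP8AP2 itself, MRPS28, a protein of the mitochondrial ribosome, had effects of -0.95 and -1.12, and PCDHB5, a protocadherin, of -0.74 and -1.28. The absence of a call does not make these effects equal on both days: for PTGS2 and PCDHB5 the unadjusted 95% interval of the difference ran from 0.09 to 0.70 and from -0.90 to -0.17.

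Few genes turned back. CLIC4, an intracellular chloride channel protein, measured 11.50, 11.54 and 11.39 against 11.16, 11.16 and 11.18 on day 1, and 11.22, 11.23 and 11.23 against 11.23, 11.23 and 11.26 on day 2. The fall of day 1 (-0.31) was gone on day 2 (difference 0.32, SE 0.07, adjusted p 0.00562), with the controls lower and the siRNA arrays hardly moved. GLDC, the glycine decarboxylase of mitochondria, had the widest swing of the shrinking genes named here. It went from 5.60, 5.36 and 4.75 against 6.16, 6.23 and 5.68 on day 1 to 5.75, 6.46 and 5.68 against 5.49, 5.43 and 5.57 on day 2 (difference -1.25, SE 0.31, adjusted p 0.0152). Its replicates were also the most scattered of the genes named here with a symbol. MPP4, a membrane scaffold protein, differed by -0.57 and UBL4B, a ubiquitin-like protein, by -0.51. The day 1 arrays enter the effect and the difference with opposite signs. On day 3 CLIC4 was lower again (-0.31, adjusted p 0.0326), so its return to control on day 2 did not last. GLDC (0.63), MPP4 (0.46) and UBL4B (-0.07) were not called on day 3.

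Sequences upstream of the genes that carry these patterns are given from RefSeq (GRCh38.p14), 5′ to 3′, as the 250 bases before the transcription start. They are shown for the cyclin and the Wnt inhibitor with the largest late and growing rises among genes with a symbol and for E2F1 and CCNA2, whose late falls are described below, and this choice was made after the values were seen. Capitals mark an E2F motif (TTTCCCGC, TTTCGCGC, TTTGCCGC or TTTGGCGC) or a cell cycle homology region motif (TTTGAA or TTCGAA) on either strand.
CCNA1, chr13:36431705-36431954, plus strand: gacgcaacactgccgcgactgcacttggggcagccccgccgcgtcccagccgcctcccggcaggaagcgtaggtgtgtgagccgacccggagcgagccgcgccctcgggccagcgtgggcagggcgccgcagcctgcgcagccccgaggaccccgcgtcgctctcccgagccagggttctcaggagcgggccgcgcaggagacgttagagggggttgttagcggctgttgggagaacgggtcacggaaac
DKK1, chr10:52314031-52314280, plus strand: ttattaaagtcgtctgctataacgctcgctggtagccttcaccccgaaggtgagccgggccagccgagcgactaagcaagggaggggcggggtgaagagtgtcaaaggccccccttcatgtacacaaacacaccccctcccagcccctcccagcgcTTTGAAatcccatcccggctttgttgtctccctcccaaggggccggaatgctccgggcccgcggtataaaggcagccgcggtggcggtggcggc
E2F1, chr20:33686386-33686635, minus strand: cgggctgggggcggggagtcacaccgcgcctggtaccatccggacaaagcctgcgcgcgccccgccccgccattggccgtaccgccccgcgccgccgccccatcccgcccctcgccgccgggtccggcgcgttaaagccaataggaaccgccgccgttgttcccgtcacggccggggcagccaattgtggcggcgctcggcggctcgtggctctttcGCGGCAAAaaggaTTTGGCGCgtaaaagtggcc
CCNA2, chr4:121823884-121824133, minus strand: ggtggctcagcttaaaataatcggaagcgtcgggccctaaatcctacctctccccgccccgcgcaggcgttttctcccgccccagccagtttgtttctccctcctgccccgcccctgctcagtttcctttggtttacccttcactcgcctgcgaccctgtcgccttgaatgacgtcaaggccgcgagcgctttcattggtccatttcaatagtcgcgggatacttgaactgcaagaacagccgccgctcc
The window of E2F1 holds 2 E2F motifs and that of DKK1 holds 1 cell cycle homology region motif. Those of CCNA1 and CCNA2 hold none of the listed strings. Other spellings of either motif were not searched, so an unmarked window is not shown to lack the element. An E2F motif stood in 2.79% of the 27305 promoter windows of the same length, in 4.17% of the 1486 measured genes that matched by symbol (of 1924), in 3 of 45 late lower genes (6.67%) and in 1 of 66 late higher genes (1.52%). The cell cycle homology region motif stood in 14.6%, 11.6%, 13.3% and 10.6% of the same groups. Counts this small are a description of letters in a window.

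The measured genes of replication licensing and the fork had 2 calls for the difference, both negative. A list member counts as measured when it had a symbol, and other members may be on the arrays without one. Measured were 17 of 41 genes for replication, 3 of 11 for deoxynucleotide supply, 7 of 25 for cyclins and E2F and 15 of 46 for mitosis. For repair it was 14 of 30, histone chaperones 3 of 18, matrix 19 of 27, ATF4 12 of 28, NF-kB 7 of 24 and p53 9 of 36. Among all genes with a symbol 10.4% were called for the difference and 4.42% for a negative one, 33.8% were called on day 2 and 16.4% were lower on it, and 3.9% were lower and 4.63% higher on day 1. Of 17 measured genes of replication licensing and the fork, 2 were called negative for the difference and 0 positive, 0 were called on day 1 in either direction, and 8 were lower and 1 higher on day 2. The list median was 0.00 on day 1 and -0.22 on day 2, against a median over all genes near 0. ORC1L (now ORC1), the largest subunit of the origin recognition complex, measured 8.25, 8.32 and 8.34 against 8.22, 8.43 and 8.27 on day 1 and 8.42, 8.58 and 8.68 against 8.07, 8.06 and 8.04 on day 2 (difference -0.51, SE 0.11, adjusted p 0.00839). RFC4, a subunit of the clamp loader, differed by -0.29 (adjusted p 0.0323). In deoxynucleotide supply 2 of 3 measured genes were called: UNG, which removes uracil from DNA, differed by -0.56 (adjusted p 0.00383) and RRM1, the large subunit of ribonucleotide reductase, by -0.22 (adjusted p 0.0347), while RRM2, its small subunit, differed by -0.08 and was not called. In UNG the siRNA arrays fell by 0.47 between the days, and in RRM1 the controls rose by 0.18 while the siRNA arrays, at -0.05, were not called. The median of the control arrays of the replication list rose by 0.10 between the days, and 5 of its 17 genes were called higher in the controls, as were 10.9% of all genes with a symbol.

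Cyclins and E2F factors had calls in both directions. Of 7 measured genes in the list of cyclins, CDK inhibitors and E2F, 3 were called negative and 1 positive. E2F1, which drives the entry into S phase, measured 8.55, 8.64 and 8.78 against 8.84, 8.69 and 8.72 on day 1 and 8.93, 8.89 and 8.74 against 8.52, 8.52 and 8.56 on day 2, so that the groups overlapped on day 1 and were separate on day 2 (difference -0.42, SE 0.09, adjusted p 0.00728). E2F2 differed by -0.52 (adjusted p 0.0229), with controls that rose by 0.71 between the days and siRNA arrays that differed by 0.19 without a call, and its call was lost without control replicate 2 (-0.48), siRNA replicate 1 (-0.46) or siRNA replicate 3 (-0.47) of day 1 or control replicate 1 (-0.48) or siRNA replicate 2 (-0.43) of day 2, and in the fit of the 12 arrays alone (adjusted p 0.0708). CCNE1, cyclin E1, the other negative member, differed by -0.30 and was named after its value was seen. CCNA2, the cyclin A of dividing somatic cells, measured 10.42, 10.35 and 10.32 against 10.18, 10.28 and 10.27 on day 1 and 10.52, 10.54 and 10.51 against 10.01, 9.94 and 10.09 on day 2 (difference -0.39, SE 0.10, adjusted p 0.0152). The A cyclins therefore went opposite ways on day 2.

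Most of the measured mitotic genes were already lower on day 1. Of 15 measured genes of mitosis and the spindle, 9 were lower on day 1, 14 on day 2 and 3 for the difference, 6 were steady and 2 growing, and the list median was -0.24 on day 1 and -0.37 on day 2. NUF2, a kinetochore protein of the NDC80 complex, measured 9.11, 9.04 and 9.07 against 8.76, 8.65 and 8.81 on day 1 and 9.27, 9.22 and 9.26 against 8.52, 8.55 and 8.57 on day 2 (difference -0.37, SE 0.07, adjusted p 0.00234). ECT2, which directs cytokinesis, differed by -0.28 (adjusted p 0.0432), and the third call was CCNA2. On day 1 the mitosis list thus had 9 lower calls and the replication list 0, and a difference in timing between the lists was not tested.

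Repair genes were mixed. Of 14 measured genes of the checkpoint and homologous repair, 4 were called negative for the difference, 1 was higher on day 1 and 0 lower. The called members were RAD54B, FANCG of the Fanconi anaemia core complex (-0.29), NBN of the MRN complex (-0.28), named after its value was seen, and XRCC3, a protein of homologous recombination, which was higher on day 1 by 0.26 and lower on day 2 by 0.18 without a call. Of the 3 measured histone chaperones only CHAF1B, a subunit of the CAF-1 complex that places histones on new DNA, was called (-0.27, adjusted p 0.021), ANP32E, a chaperone of H2A.Z, just missed (-0.33, adjusted p 0.0502), and all 3 were lower on day 2. Of the 3 measured genes of histone mRNA synthesis and processing 0 were called for the difference. Neither of the 2 measured replacement histone genes, H1F0 (-0.18) and H2AFX (-0.14), was called on any of the 3 days or for the difference.

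Calls of modest size were the least stable. Those of CHAF1B, RFC4, RRM1, FANCG and ECT2 were each lost without any of 5 to 11 of the 12 arrays and after cyclic loess normalization, with adjusted p of up to 0.162. Under cyclic loess normalization the negative calls were 1 of 17 for replication, 1 of 3 for deoxynucleotide supply, 2 of 7 for the cyclins and E2F, 2 of 15 for mitosis and 2 of 14 for repair, and the medians of all these lists stayed negative under each scaling. ORC1L, UNG, CCNA2, NUF2 and E2F1 kept their calls in every alternative other than a size filter.

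**Figure D3:**
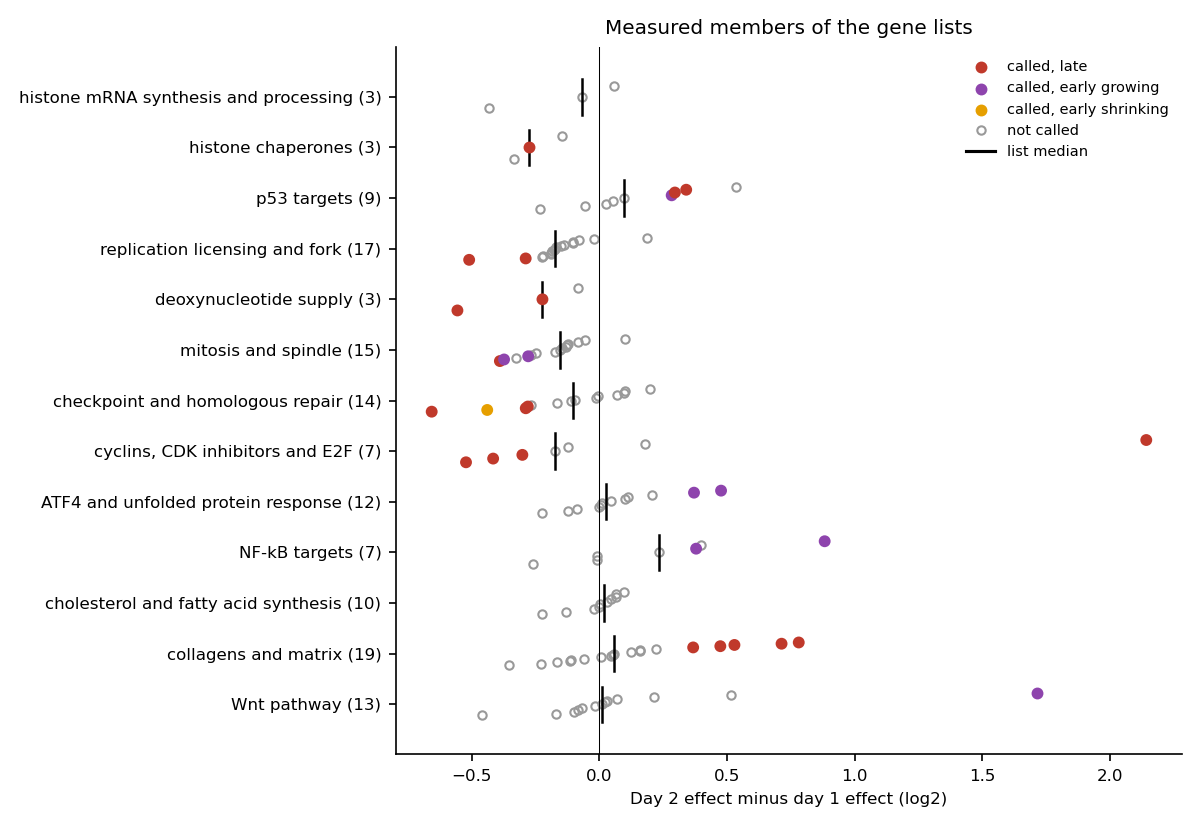
Day 2 effect minus day 1 effect (x axis, log2) of the measured members of each gene list with at least 3 of them, their number in parentheses, with filled points for called genes coloured by timing class and a black line at the list median. The medians of the replication, nucleotide, mitosis and cyclin lists lie left of 0, with CCNA1 at 2.14 as their only positive call, and the 5 called matrix genes of 19 lie to the right.

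Genes of the extracellular matrix had 5 positive calls, the highest count of the lists but not the highest share, since 3 of 9 p53 targets and 2 of 7 NF-kB targets were called positive. Among genes with a symbol 5.98% were called for a positive difference. Of 19 measured collagens and matrix genes, 5 were called positive and 0 negative, all 5 late, with 0 called on day 1 and 6 higher on day 2. LAMB1, the laminin beta 1 chain, measured 10.37, 10.36 and 10.42 against 10.37, 10.38 and 10.41 on day 1 and 9.75, 9.85 and 9.86 against 10.32, 10.32 and 10.26 on day 2 (difference 0.47, SE 0.08, adjusted p 0.000457). COL6A3, a collagen VI chain, measured 9.20, 9.19 and 9.17 against 9.12, 9.13 and 9.17 on day 1 and 8.24, 8.27 and 8.23 against 8.73, 8.78 and 8.69 on day 2 (difference 0.53, SE 0.09, adjusted p 0.000784). In both genes the control arrays fell between the days, by 0.56 and by 0.94, and the siRNA arrays by 0.09 and by 0.41. TGFBI, a matrix protein induced by TGF-beta, differed by 0.71, with siRNA arrays that rose by 0.45. The controls of the list were called lower on day 2 for 9 of 19 genes and higher for 0 (8.26% of all genes with a symbol were lower), and all 5 positive calls were kept under each scaling.

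In the stress and NF-kB lists 10 of 19 measured genes were higher on day 1, and 4 of them grew. The share of genes with a symbol higher on day 1 was 4.63%. Of 12 measured genes of ATF4 and the unfolded protein response, 5 were higher on day 1, 6 on day 2 and 2 for the difference. ASNS, asparagine synthetase, measured 7.90, 7.74 and 7.62 against 8.26, 8.36 and 8.22 on day 1 and 8.04, 8.15 and 8.00 against 9.02, 9.03 and 9.14 on day 2 (difference 0.48, SE 0.10, adjusted p 0.00667). SLC7A11, the cystine transporter, differed by 0.37 (adjusted p 0.0137), while HSPA5, the chaperone BiP of the endoplasmic reticulum, was higher by 0.32 on day 1 and 0.10 on day 2 (difference -0.22, adjusted p 0.1). Of 7 NF-kB targets, 5 were higher on day 1, 5 were higher and 1 lower on day 2, and 2 were called positive. IL1A, the cytokine interleukin 1 alpha, measured 7.53, 7.53 and 7.70 against 8.35, 8.29 and 8.16 on day 1 and 7.25, 7.33 and 7.80 against 8.85, 9.21 and 8.99 on day 2 (difference 0.88, SE 0.21, adjusted p 0.0123). TNFAIP2 differed by 0.38 (adjusted p 0.0218) and lost its call without control replicate 2 (0.36) or 3 (0.34) or siRNA replicate 1 (0.35) of day 1 or control replicate 2 (0.29) of day 2. It also lost it in the fits of the 12 arrays alone (adjusted p 0.0842) and of all 40 arrays (0.0616) and with the replicate number as a block (0.0503).

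Target genes of p53 gave weak calls for the difference. Of 9 measured members 2 were higher on day 1, and 5 were higher and 1 lower on day 2. Among genes with a symbol 4.63% were higher on day 1. On day 2, 17.4% were higher and 16.4% lower, and 5.98% were called for a positive difference. The difference was called positive for 3 members, TRIM22 (0.34), PERP (0.30) and APAF1 (0.28). TRIM22 is an interferon and p53 responsive protein, PERP a desmosomal effector of p53 and APAF1 the core of the apoptosome. None of the 3 was called when each array was centred on its median, and each call was lost without any of 9 or 10 of the 12 arrays. On day 3 TRIM22 was lower by 0.53 (adjusted p 0.0305), the opposite of day 2, APAF1 was higher by 0.39 (adjusted p 0.0452), as on day 2, and PERP (-0.32, adjusted p 0.0999) was not called. In the Wnt list DKK1 alone of 13 measured genes was called, and NKD1, an inhibitor of the pathway, differed by 0.52 without a call (adjusted p 0.0746). Measured were 2 of 37 interferon-stimulated genes, 10 of 26 genes of cholesterol and fatty acid synthesis, 2 of 25 of ribosome biogenesis and 2 of 9 of each marker list. They had 0 calls for the difference, beside 10.4% of all genes with a symbol, and so few members do not describe the lists.

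A difference between days can come from the siRNA arrays, from the controls or from both. Between the days 2868 genes (13%) were called in the controls, 1609 higher (7.29%) and 1259 lower (5.7%) on day 2, and 4929 (22.3%) in the siRNA arrays, 2461 higher and 2468 lower. With each array centred on its median the split was 1152 higher and 1686 lower in the controls and 1921 and 3854 in the siRNA arrays, and after cyclic loess it was 1356 and 1448 in the controls and 2794 and 1922 in the siRNA arrays, so the split within an arm depends on the scaling, as that of the difference does. Of the 1207 late genes, 746 were called between the days in the siRNA arrays only, 237 in the controls only, 179 in both and 45 in neither, and the siRNA arrays had moved farther in 880. Late higher genes had a median change of 0.48 in the siRNA arrays and -0.08 in the controls, and late lower genes of -0.28 and 0.14. CCNA1 and ANGPT2 moved in the siRNA arrays (2.24 and 1.90) with controls at 0.10 and -0.15, whereas in TTPA the controls changed by 0.53 and the siRNA arrays by -0.10.

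**Figure D4:**
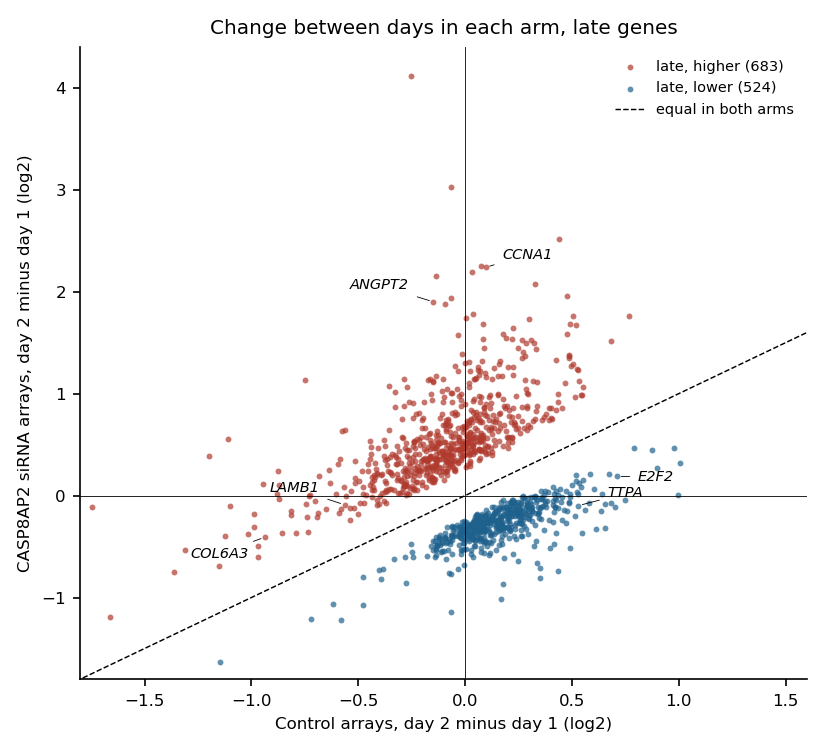
Change from day 1 to day 2 in the control arrays (x axis, log2) against that in the CASP8AP2 siRNA arrays (y axis, log2) for the 1207 late genes, 683 higher (red) and 524 lower (blue), with the dashed line where both arms changed alike. Points near the vertical axis, such as CCNA1 and ANGPT2, changed in the siRNA arrays, and points near the horizontal axis, such as LAMB1 and TTPA, changed mainly in the controls.

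Arrays of day 3, which played no part in the classes, were then compared. CASP8AP2 siRNA in U2OS cells on day 3 (2 arrays against 2, fitted with the other day 3 arrays) called 4165 genes (18.9%), 1746 higher (7.91%) and 2419 lower (11%), or 1363 and 2963 with each array centred on its median. The count rests on few arrays: it was 2455 in the fit of the 4 arrays alone, and 1792 without siRNA replicate 1, 2227 without control replicate 1 and 2451 without control replicate 2, and the shares below were not computed on those smaller sets. Late genes were called on day 3 in 639 of 1207 (52.9%), 624 of them in the direction of day 2. Growing genes were called in 199 of 229 (86.9%), all 199 in the same direction, and steady genes in 439 of 820 (53.5%), 431 in the same direction. Shrinking genes were called in 17 of 67, 8 in the direction of their difference and 9 in the opposite direction, that of day 1. The classes hold more highly expressed genes than the array as a whole, and among the 12607 genes with a mean of at least 5 in U2OS cells 28.9% were called on day 3. Median day 3 effects were 0.39 for late higher and -0.33 for late lower genes, and 0.78 and -0.63 for growing ones. CCNA1 stood at 3.02 on day 3 and DKK1 at 2.21, COL6A3 at 1.09 and LAMB1 at 0.86. Of the genes of replication and S phase named above CCNA2 (-0.50, adjusted p 0.00997), UNG (-0.54, adjusted p 0.0163), RFC4 (-0.50, adjusted p 0.00751) and E2F2 (-0.51, adjusted p 0.0123) were called on day 3, and E2F1 (-0.17, adjusted p 0.377), ORC1L (-0.19, adjusted p 0.258) and RRM1 (-0.14, adjusted p 0.344) were not.

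**Figure D5:**
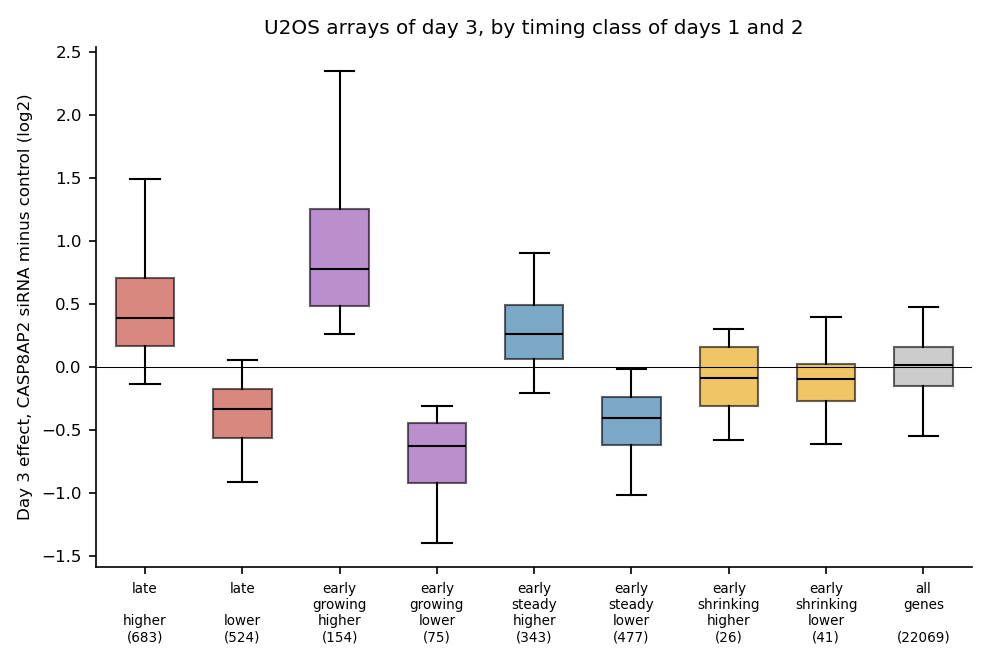
Effect of CASP8AP2 siRNA in U2OS cells on day 3 (y axis, log2) by timing class of days 1 and 2 and direction, with the number of genes in parentheses, the median (line), the quartiles (box) and the 5th and 95th percentile (whiskers). Late higher genes have a median of 0.39 and late lower genes of -0.33, early growing genes 0.78 and -0.63, and both groups of shrinking genes lie around 0.

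Genes were also picked by day 3 alone. The 1746 genes higher on day 3 had a median effect of 0.10 on day 1, 0.32 on day 2 and 0.50 on day 3, and the 2419 lower genes of -0.08, -0.25 and -0.50. On day 1, 285 of the higher genes (16.3%) and 377 of the lower (15.6%) were called in the day 3 direction, and on day 2 1022 (58.5%) and 1303 (53.9%). The difference between days 1 and 2 was called in that direction for 490 (28.1%) and 353 (14.6%). The day 3 medians come from the arrays that picked the genes and are larger for it.

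Knockdown of NPAT or HINFP on day 3 moved part of the late genes as well. NPAT siRNA called 8.13% of all genes and HINFP siRNA 9.43%, and they changed 311 (25.8%) and 433 (35.9%) of the 1207 late genes in the direction of day 2. For the growing genes the counts were 114 and 128 of 229, and for the steady genes 150 (18.3%) and 156 (19.0%) of 820. The shares over all genes count both directions and were not computed among genes with a mean of at least 5. Both siRNAs were compared with the same control arrays on day 3, which are not those of days 1 and 2.

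In hTERT-RPE1 cells, retinal pigment epithelial cells immortalised with telomerase, fewer genes differed between the days. The same difference was called for 144 genes (0.652%), 133 positive (0.603%) and 11 negative (0.0498%), and 75 genes were called in both lines, all 75 with the same sign. Of the late genes 55 were called in hTERT-RPE1 cells, all 55 higher, and 0 of the 524 late lower genes were. With only 11 negative calls over all genes, that 0 does not set the late lower genes apart. CCNA1 rose late in both lines, with a difference of 2.31 in hTERT-RPE1 cells (adjusted p 9.65e-07), as did PGF with 1.04 (adjusted p 0.00218). CASP8AP2 itself fell less in hTERT-RPE1 cells, with effects of -0.85 on day 1 and -0.76 on day 2, and the part of this in the counts was not tested. The day 2 effect in hTERT-RPE1 cells was called for 6.4% of all genes. Among the 12607 genes with a mean of at least 5 in U2OS cells it was called for 9.4%. Of the late genes 267 (22.1%) were called for it, and 257 had the U2OS direction, 193 of the 683 late higher and 64 of the 524 late lower genes. When the difference in U2OS cells was compared with that in hTERT-RPE1 cells in 1 test, 281 genes (1.27%) were called, 193 more positive and 88 more negative in U2OS cells, among them 178 late genes. ANGPT2 (2.03 more in U2OS cells, adjusted p 2.73e-05), TGFA (1.24, adjusted p 0.00555), DLL4 (1.29, adjusted p 0.00755) and DKK1 (1.53, adjusted p 0.001) were called in that test, and CCNA1 (-0.17, adjusted p 0.881) was not. E2F1, CCNA2, ORC1L and UNG were not called in it either, with values from -0.36 to -0.27, so their late fall is not shown to differ between the lines.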

How the data were processed

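RNA of U2OS and hTERT-RPE1 cells was hybridised to Affymetrix human whole-transcript arrays. The authors deposited log2 expression values per Ensembl gene (22069 genes, 40 arrays), made with RMA per the labels; the methods name the affy package with a custom Ensembl probe definition and give no version. RMA levels out array-wide shifts, so a change of most transcripts in 1 direction would not be seen. Values of days 1 and 2 and of day 3 were taken as normalized separately and fitted apart. All columns were mapped to a sample.

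Group means were fitted with limma 3.58.1 in R 4.3.3 over the 24 arrays of days 1 and 2 (16 residual degrees of freedom), and over the 16 arrays of day 3 (8), with moderated statistics and Benjamini-Hochberg adjustment over all 22069 genes at 0.05. Every adjusted p in the text is from limma. Arrays have no depth, and precision is limited by how many there were. The fit was tested on simulated data. Alternatives were other sets of arrays, median centring, cyclic loess, quantile, a mean of at least 5, an absolute log2 of at least 1, a replicate block, a trended variance and each array left out.

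Symbols came from the authors' pairing in their screen (1924 genes). Named genes are, among genes with a symbol and separate arrays, the 6 late genes with the largest rise and the 6 with the largest fall, the 3 largest each way of the other classes, the 3 members of each list with the smallest p, and the 2 largest each way of all genes. Members, lists and tests were chosen with earlier results of these data known. Promoters were matched by symbol, with older names used only for symbols that RefSeq no longer holds. Some genes that the naming rule or the lists hold are not reported here.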

Additional observations from a re-analysis of the deposited data

Results flagged for a closer look

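The difference between the days was itself different in U2OS and hTERT-RPE1 cells, by a test of the difference across the 24 arrays of days 1 and 2 (limma, adjusted over all genes), for 16 of the genes named above. Values are U2OS minus hTERT-RPE1 on the log2 scale. Among rises, ANGPT2 differed by 2.03 (adjusted p 2.73e-05), TGFA by 1.24 (0.00555), ZNF280A by 1.43 (0.00352), DLL4 by 1.29 (0.00755) and DKK1 by 1.53 (0.001). In these 5 genes the difference between days in hTERT-RPE1 cells lay between -0.17 and 0.19. The amino acid genes ASNS and SLC7A11 differed by 0.71 (adjusted p 0.0172) and 0.59 (0.0219). Of the genes without a symbol, ENSG00000144158 differed by 4.66 (adjusted p 5.46e-11), ENSG00000252421 by 1.62 (0.041) and ENSG00000184348 by -1.24 (0.027).

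Among falls, OSGEPL1 differed by -0.81 (adjusted p 0.0139), DHODH by -0.84 (0.0026), NEIL3 by -0.57 (0.0476) and ACCN2 by -0.61 (0.0257). The genes with a shrinking effect MPP4 and UBL4B differed by -0.91 (adjusted p 0.00554) and -0.55 (0.0451). With the replicate number as a block 204 genes were called in this test.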

How the results depend on the processing

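Of 189 alternative counts 165 stayed within 1.5 times the main count. Asking for a log2 size of at least 1 left 148 genes for the difference, 36 on day 1, 313 on day 2, 50 and 192 between the days in control and siRNA arrays, 27 for the difference in hTERT-RPE1 cells, 88 for the comparison of the lines, and 109 late, 34 growing, 53 steady and 3 shrinking genes. Day 3 gave 2455 calls from its 4 arrays alone. With 1 array left out at a time the counts ran from 1175 to 1357 for the difference, 883 to 1309 on day 1, 4658 to 5506 on day 2, 908 to 1121 late, 146 to 210 growing, 596 to 819 steady, 38 to 57 shrinking and 1792 to 4165 on day 3. Growing genes were 146 without siRNA replicate 2 and 149 without control replicate 1 of day 1, and day 3 had 1792 calls without its siRNA replicate 1, 2227 without control replicate 1 and 2451 without control replicate 2; the lone array was assumed to vary like the others. Shrinking genes were 44 without control replicate 1, 39 without siRNA replicate 1 and 42 without siRNA replicate 2 of day 1, and 41, 40 and 38 without control replicates 1, 2 and 3 of day 2. The cause was not tested.

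With the replicate number as a block 1307 genes were called for the difference (1259 of them also without it), 1121 on day 1, 5254 on day 2, 1019 late, 193 growing, 720 steady and 42 shrinking. The numbers do not pair the arrays: deviations of same-numbered arrays correlated between -0.0995 and 0.0677, with 0 of 18 pairs over 0.1. Of 47 named genes called for the difference, 13 lost the call in at least 1 alternative other than the size of 1. The other 34 were called in every such alternative that held them. CCNA1, ANGPT2, DLL4, KCNJ15 and UBL4B were not in the fit of genes with a mean of at least 5. Values without a call that changed sign when an array was left out were SP110 (-0.18 to 0.061), BEST1 (-0.018 to 0.22) and RLBP1 (-0.080 to 0.28).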
